A study of Homo sapiens with 6 samples.

Results

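The eukaryotic translation initiation factors were examined by RNA sequencing in 83 cells, a human line called SACC in the labels, an abbreviation that usually stands for salivary adenoid cystic carcinoma. The members were the rows of the count table whose symbol is EIF followed by a digit from 1 to 6 and then letters or digits, without the 4 EIF2AK kinase rows. This gave 49 of 21676 genes, of which 4 belong to the EIF1 group, 11 to EIF2, 14 to EIF3, 14 to EIF4, 5 to EIF5 and 1 to EIF6. The rule works on symbols, so the eIF4E-binding proteins, the eIF4E transporter and the eIF1A-related protein EIF1AD were members too. Of the 49, 48 passed the low-count filter and were tested. EIF4EBP3 did not, with 7, 9 and 6 counts in the control libraries and 8, 0 and 0 with ApoD overexpression.

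The 2 groups were control cells (3 libraries, numbered 1 to 3) and cells with overexpression of ApoD (3 libraries, numbered 1 to 3), all of the same cell line. The labels do not say how the ApoD gene was introduced, what the control cells received, whether a group is 1 clone or a pool, or whether each library had a culture of its own. All p-values thus rest on the spread among these 6 libraries, part or all of which may be technical. Because the samples are bulk RNA, a smaller number of cells of a type and less RNA per cell cannot be told apart.

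Translation of most messenger RNAs begins when the eIF4F complex binds the 5′ cap: eIF4E holds the cap, eIF4G is the scaffold and eIF4A unwinds the leader. The small ribosomal subunit arrives with eIF1, eIF1A, eIF3, eIF5 and the ternary complex of eIF2, GTP and the initiator transfer RNA, and it scans to the start codon. The guanine exchange factor eIF2B then recharges eIF2, and phosphorylation of the eIF2 alpha subunit blocks that step in the integrated stress response. Growth signals through the kinase mTORC1 act on the same machinery, in part by releasing eIF4E from its binding proteins.

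The libraries held 37542568 to 40416964 counts. The targeted gene had 9, 8 and 2 counts in controls and 628, 528 and 625 counts with ApoD overexpression. All 6 epithelial markers looked at were present, with 122443 to 162790 summed counts in controls and 139045 to 143766 with ApoD overexpression. Most of that sum was keratin, and 3 of the 6 were lower in every library with ApoD overexpression. CDH1 had 2795 to 3303 counts in controls and 999 to 1377 with ApoD overexpression, EPCAM 11919 to 12886 and 8978 to 9836, and KRT5 24708 to 30724 and 21199 to 22525. The 3 endothelial markers summed to 323 to 552 counts in controls and 53 to 88 with ApoD overexpression, and the 4 fibroblast markers to 1111 to 1333 and 349 to 543. The 4 immune markers summed to 636 to 1361 and 1373 to 1455 counts, nearly all from CD68, while PTPRC, which marks all white blood cells, had 1, 12 and 0 counts in controls and 0 in each library with ApoD overexpression. The fibroblast genes DCN and LUM had 0 or 1 counts in every library, and 2 salivary acinar markers summed to at most 13. The part of these markers in the results below was not tested.

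Most initiation factors were more abundant with ApoD overexpression. Of the 48 tested members 28 rose and 2 fell by edgeR's quasi-likelihood test at an adjusted p under 0.05, against 24.2% of all 14629 tested genes that rose and 24.6% that fell (48.8% in either direction). The 28 are 58.3% of the tested members. The median log2 fold change (ApoD overexpression over control) of all 48 was 0.39, against −0.02 over all tested genes. By family, 3 of 4 tested members rose for eIF1, 6 of 11 for eIF2, 8 of 14 for eIF3, 6 of 13 for eIF4, 4 of 5 for eIF5 and the only one for eIF6. Both members that fell belong to eIF4. In size, the largest rise was in EIF3C, and the only fall over 2-fold was in EIF4E3. For 39 of the 48 members the CPM of both groups were apart, with no overlap, as for 58.7% of all tested genes. CPM here is a count per 1000000 of the library size after edgeR's TMM scaling.

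**Figure D1:**
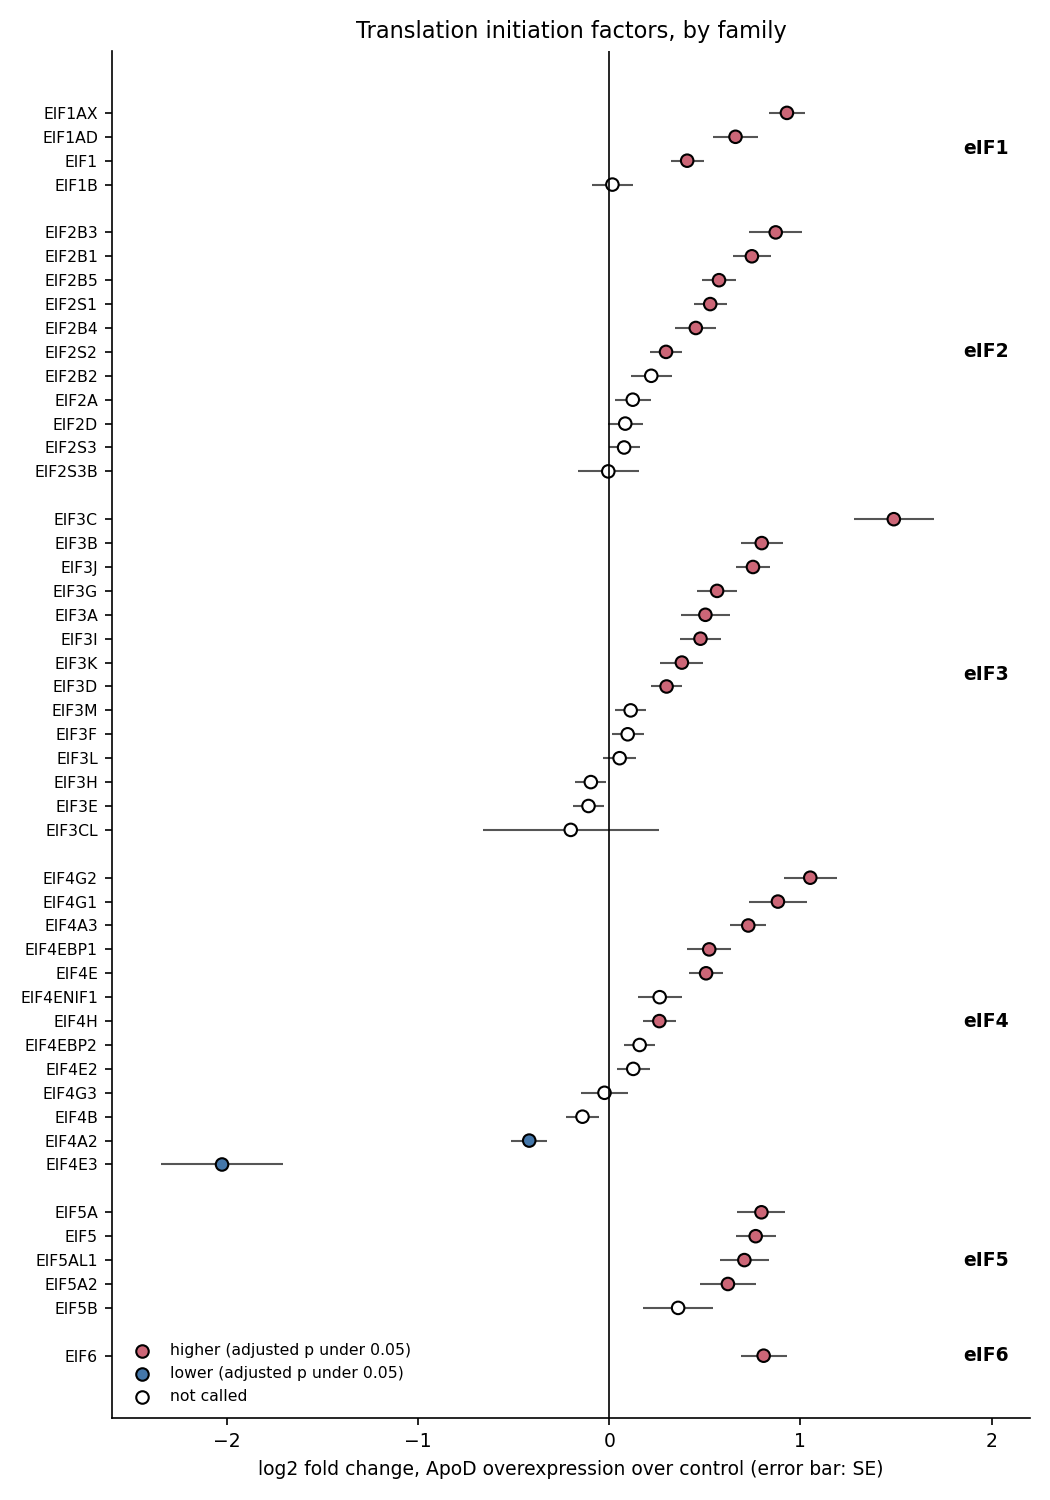
Log2 fold change (x axis, ApoD overexpression over control) of the 48 tested initiation factors, grouped by family, with bars of 1 SE; filled points passed an adjusted p under 0.05 in edgeR. All but 2 of the called members lie right of 0, and EIF4E3 at −2.03 lies far to the left of the rest.

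The initiation factors are abundant transcripts, with a median mean count of 5359 against 926 for all tested genes, and abundant genes as a class were more often higher in these libraries. Among the 1689 tested genes whose mean count reached 5000, 45.3% rose and 13.6% fell. Among the 25 members in that range 15 rose and 1 fell. When each library's trend with abundance was removed, 23 members rose and 5 fell, against 22.1% and 23.1% of all tested genes (45.2% in either direction). With library totals as the only scaling 24 rose and 5 fell, against 17.6% and 30.3% (48.0% in either direction). That scaling moved the median of all tested genes from −0.02 to −0.13 on the log2 scale. Tested against a change of 1.5-fold (edgeR's glmTreat), 3 members rose (EIF3C, EIF4G2 and EIF1AX) and 1 fell (EIF4E3), beside 3.73% and 9.78% of all tested genes (13.5% in either direction).

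All members together took 1.09%, 0.988% and 0.989% of the counts in the controls and 1.30%, 1.31% and 1.38% with ApoD overexpression. Every library with ApoD overexpression lay above every control. EIF4G2, EIF5A, EIF4G1 and EIF3B made up 65.4% of the summed CPM difference of the tested members, 4040 CPM. Per gene length, in deposited FPKM, the order of the most abundant members in controls was EIF4G2 (264), EIF5A (230.0), EIF4H (219), EIF4A2 (195) and EIF1 (183). With ApoD overexpression it was EIF4G2 (506), EIF5A (369), EIF4H (242), EIF3B (226) and EIF1 (223), with EIF4A2 in place 13. Among the controls, replicate 1 had the highest level of the 3 in 28 of 48 members and replicate 3 the lowest in 25. Among the libraries with ApoD overexpression, replicate 1 was the lowest of the 3 in 29 members. The median coefficient of variation of a member was 7.55% within controls and 7.04% with ApoD overexpression.

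The scaffolds and the cap-binding proteins did not move alike. EIF4G2 (also called DAP5), a relative of eIF4G that lacks the site for eIF4E, stood at 1351, 974 and 914 CPM in controls and at 2281, 1998 and 2434 CPM with ApoD overexpression. The groups did not overlap, and the highest control was replicate 1. The rise was 2.07-fold (log2 fold change 1.05 ± 0.14 SE, edgeR adjusted p = 9.33e-05). EIF4G1, the main scaffold of the cap complex, stood at 832, 584 and 512 CPM in controls and at 1071, 1203 and 1279 CPM with ApoD overexpression. Again the groups were apart, with control replicate 1 the highest of its group. EIF4G1 rose 1.84-fold (log2 fold change 0.88 ± 0.15 SE, edgeR adjusted p = 0.000571), and by 1.12 when control replicate 1 was left out. The third scaffold, EIF4G3, ran from 106 to 135 CPM in controls and from 97.3 to 128 CPM with ApoD overexpression, with a log2 fold change of −0.03 ± 0.12 (SE) that did not pass.

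EIF4E, which binds the cap, stood at 76.2, 77.4 and 85.8 CPM in controls and at 113, 113.2 and 114 CPM with ApoD overexpression. The 3 libraries with ApoD overexpression were nearly equal and all above the controls. It rose 1.42-fold (log2 fold change 0.51 ± 0.09 SE, edgeR adjusted p = 0.000561). EIF4E3, the least abundant of the 3 cap-binding members, had 272, 462 and 565 counts in controls and 154, 77 and 64 with ApoD overexpression. It fell with a log2 fold change of −2.03 ± 0.32 (SE, edgeR adjusted p = 0.000295), and leaving out 1 library at a time gave values from −2.43 to −1.78. EIF4E2, a cap-binding protein that does not join eIF4G and takes part in translational repression, had a log2 fold change of 0.13 ± 0.09 (SE) and did not pass.

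The other parts of the cap complex differed in direction. EIF4A2, an eIF4A helicase and the one of the cap complex analysed here, stood at 317, 359.7 and 379.6 CPM in controls and at 277, 249 and 264 CPM with ApoD overexpression. The groups were apart, and EIF4A2 was the only called fall besides EIF4E3 (log2 fold change −0.42 ± 0.09 SE, edgeR adjusted p = 0.00320). EIF4A3, a helicase of the same family that serves in the exon junction complex and not in cap binding, rose by 0.73 ± 0.09 (SE) on the log2 scale. Of the helicase cofactors, EIF4H rose by 0.26 ± 0.09. That call was lost when any of control replicates 2 and 3 or ApoD replicates 2 and 3 was left out, with the replicate number as a block (adjusted p = 0.0650), under library totals (0.132) and after the abundance trend was taken out (0.582). EIF4B, the other cofactor, had −0.14 ± 0.09 and did not pass with TMM scaling. It was called lower under library totals (−0.26) and after the abundance trend was taken out (−0.35).

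The inhibitor EIF4EBP1 rose along with its target. It stood at 65.3, 56.2 and 68.6 CPM in controls and at 83.5, 104.6 and 85.0 CPM with ApoD overexpression, with no overlap. The log2 fold change was 0.52 ± 0.11 (SE, edgeR adjusted p = 0.00263). The ratio of EIF4EBP1 to EIF4E in FPKM, a level per gene length and a pair chosen after values were seen, had a mean of 2.88 ± 0.239 over the 3 controls and of 2.91 ± 0.381 over the libraries with ApoD overexpression (SD, n = 3 each), with overlap between the groups. EIF4EBP2 had a log2 fold change of 0.16 ± 0.08 and EIF4ENIF1, the transporter that carries eIF4E into the nucleus, 0.26 ± 0.11, and neither passed. EIF4ENIF1 was called higher without control replicate 1 (0.34) or without ApoD replicate 2 (0.31).

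**Figure D2:**
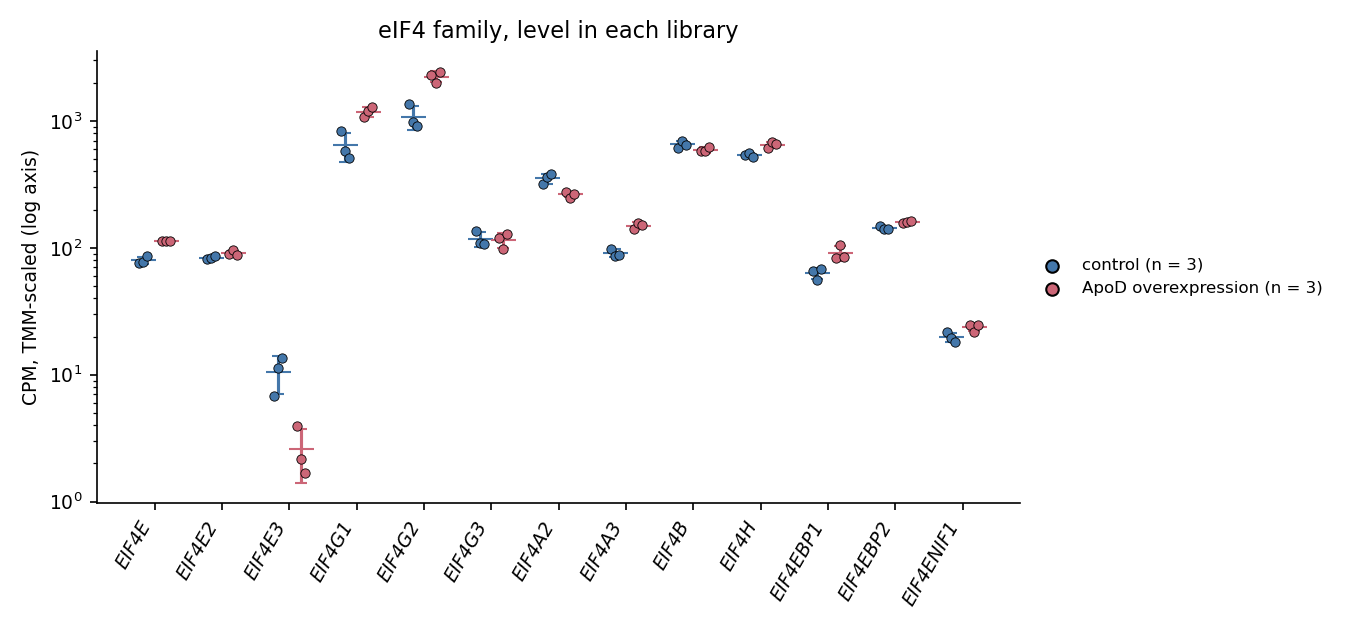
Level of the tested eIF4 family members in each library, in TMM-scaled CPM on a log axis; points are libraries, bars are the mean ± SD of 3. EIF4G2 is the most abundant of these members and rises. EIF4G1 also rises, and with ApoD overexpression only EIF4G2 lies above it. In controls the mean of EIF4G1 (643 CPM) is just below that of EIF4B (653 CPM). EIF4G3 overlaps between the groups, and EIF4E3 is the least abundant and falls.

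Paralog shares were compared within the small groups, and none passed after adjustment. Per gene length, EIF4E made up 54.5% ± 0.778 of the summed FPKM of EIF4E, EIF4E2 and EIF4E3 in controls and 61.8% ± 1.09 under ApoD overexpression (SD, n = 3). EIF4E2 made up 43.5% ± 1.14 and 37.8% ± 1.12, and EIF4E3 1.99% ± 0.581 and 0.393% ± 0.182. Among the scaffolds EIF4G3 went from 3.69% ± 0.329 to 1.81% ± 0.130, and EIF4G2 from 68.5% ± 0.747 to 71.9% ± 2.30, while the share of EIF4G1 overlapped between groups. EIF1B made up 13.4% ± 0.578 and 10.5% ± 0.212 of the sum with EIF1. For each of these shares but that of EIF4G1 the groups did not overlap, and the exact two-sided permutation test gave p = 0.1, the smallest that 3 against 3 can give, or 0.138 adjusted over 11 shares. The share of EIF5A2 beside EIF5A was 1.81% ± 0.622 and 1.56% ± 0.225 and overlapped (exact permutation p = 0.700).

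**Figure D3:**
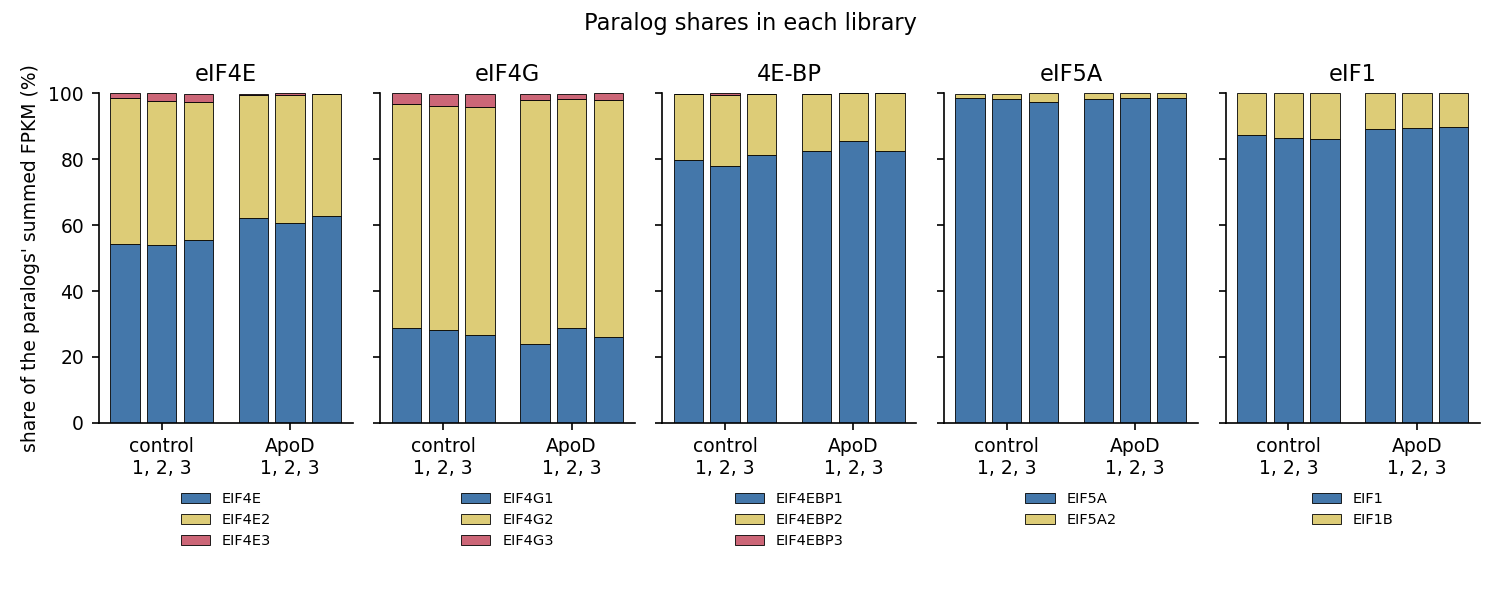
Share of each paralog in the summed FPKM of its group (y axis, percent) in the 3 control and 3 ApoD overexpression libraries. The EIF4E segment is taller in all 3 libraries with ApoD overexpression (60.6% to 62.7%) than in the controls (53.8% to 55.4%), and the EIF4E3 and EIF4G3 segments are shorter.

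The subunits of eIF3 fell into those that rose and those that did not. This complex of 13 subunits binds the small ribosomal subunit. Its core holds 6 subunits with a PCI domain and 2 with an MPN domain, and a module of eIF3b, eIF3g and eIF3i sits on the other side of the ribosomal subunit. Without the copy gene EIF3CL, 8 of the 13 subunits rose and 0 fell, beside 24.2% and 24.6% of all tested genes. The groups were apart for 12 of 13, beside 58.7% of all tested genes, and some of these 12 did not pass. With the abundance trend removed 6 of the 13 rose and 2 fell, beside 22.1% and 23.1% of all tested genes. All 3 genes of the b, g and i module rose: EIF3B by 0.80 ± 0.11, EIF3G by 0.56 ± 0.11 and EIF3I by 0.48 ± 0.10 (log2 fold change ± SE; the highest edgeR adjusted p of the 3 was 0.00268). EIF3J, a loosely bound subunit, stood at 93.6, 83.1 and 90.3 CPM in controls and at 146, 148 and 155 CPM with ApoD overexpression. Its groups lay well apart, and it rose by 0.75 ± 0.09 (edgeR adjusted p = 3.8e-05).

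EIF3B stood at 553, 458 and 433 CPM in controls and at 758, 897 and 855 CPM with ApoD overexpression. All libraries with ApoD overexpression were above all controls, a 1.74-fold rise (edgeR adjusted p = 0.000118). EIF3A, the largest scaffold subunit, stood at 263.2, 228 and 208 CPM in controls and at 338, 272 and 379.9 CPM with ApoD overexpression. ApoD replicate 2 lay just above the highest control, and the log2 fold change was 0.50 ± 0.13 (SE, edgeR adjusted p = 0.00613).

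Of the 8 PCI and MPN subunits 3 rose, namely EIF3A, EIF3C and EIF3K, with a median log2 fold change of 0.10. These are 37.5%, beside 24.2% of all tested genes that rose. The 8 are abundant, with a median mean count of 9002, and 45.3% of the 1689 tested genes from 5000 mean counts upward rose. The share of the 8 was thus not above that of abundant genes. Once the abundance trend was taken out, 2 of the 8 rose and 2 fell, with a median of −0.09. EIF3E, EIF3F, EIF3H, EIF3L and EIF3M had log2 fold changes between −0.11 and 0.11 and did not pass. EIF3E stood at 356, 376 and 387 CPM in controls and at 345.9, 345.2 and 346.3 CPM with ApoD overexpression, and EIF3H at 246 to 257 and 229 to 242 CPM. Both were called lower under library totals (−0.23 and −0.21) and after the abundance trend was taken out (−0.31 and −0.30). EIF3D, which can itself bind the cap, rose by 0.30 ± 0.08 and EIF3K by 0.38 ± 0.11. These 2 calls were lost under library totals (adjusted p = 0.0583 and 0.0694) and after the abundance trend was taken out (0.285 and 0.130). Without ApoD replicate 2 the change of EIF3K was 0.23, and without control replicate 2 its adjusted p was 0.0708.

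EIF3C had the largest rise of all members, on a count that may be shared with a copy gene. It had 1039, 1012 and 952 counts in controls and 1830, 2208 and 3736 with ApoD overexpression (log2 fold change 1.49 ± 0.21 SE, edgeR adjusted p = 0.000132). ApoD replicate 3 was far above the other two. Its near-identical copy EIF3CL had 179, 109 and 573 counts in controls and 326, 176 and 190 with ApoD overexpression, so that reads of the pair may have been divided between them in different ways. Summed, the pair had 1218, 1121 and 1525 counts in controls and 2156, 2384 and 3926 with ApoD overexpression, a log2 fold change of 1.25 ± 0.20 (SE, edgeR adjusted p = 0.000284). EIF3CL alone had −0.20 ± 0.46 and did not pass, and without control replicate 3 its sign turned, to 0.79 (adjusted p = 0.0389).

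Per gene length the subunits were far from equal. In controls the FPKM of EIF3C was the lowest, 7.09 ± 0.257, and that of EIF3E the highest, 161 ± 10.1 (SD, n = 3). EIF3B was above EIF3E in control replicate 1. With ApoD overexpression EIF3B was the highest in every library, at 226 ± 16.0 FPKM, and EIF3C still the lowest, at 18.3 ± 6.93. How reads that match both EIF3C and its copy EIF3CL were counted is not known. The FPKM of EIF3C may thus be too low, which was not tested. The ratio of EIF3B to EIF3E, a pair picked after its values were seen, was 1.05, 0.824 and 0.759 in controls and 1.49, 1.76 and 1.67 with ApoD overexpression. The separation of the groups follows from how the pair was picked, so it was not tested.

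**Figure D4:**
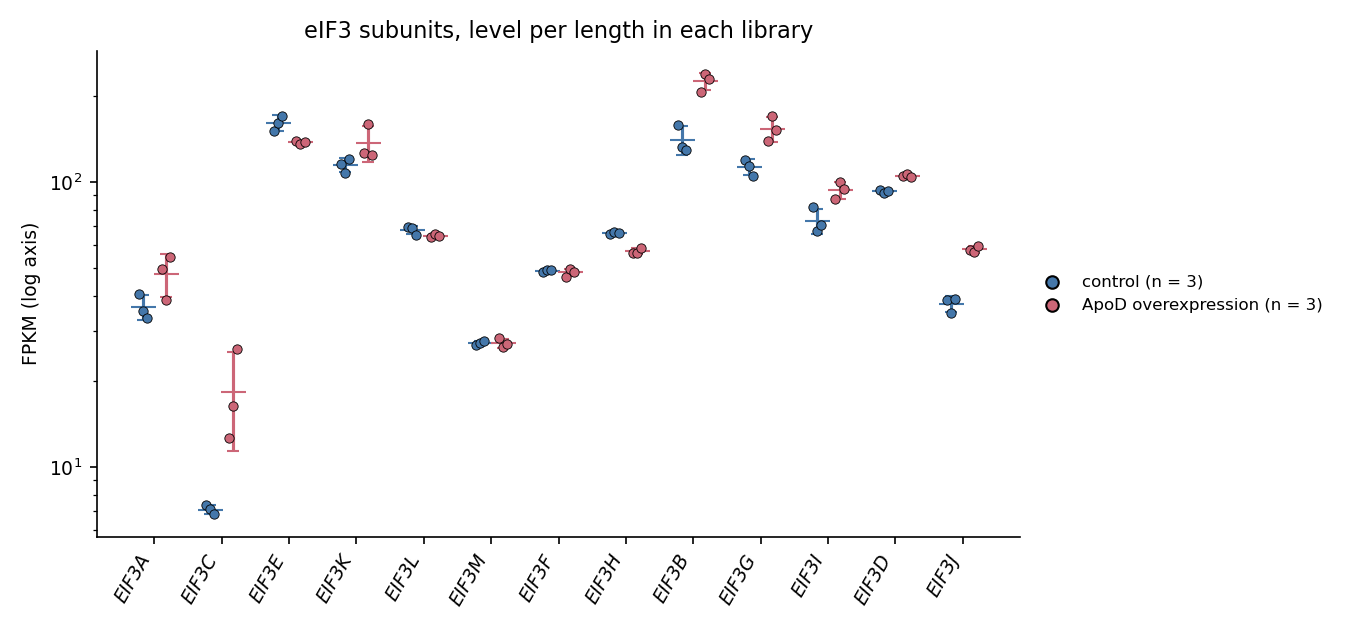
FPKM of the 13 eIF3 subunits in each library on a log axis, with the PCI subunits at the left, then the MPN subunits, the b, g and i module, and eIF3d and eIF3j; bars are the mean ± SD of 3 libraries. EIF3B rises above EIF3E with ApoD overexpression, and EIF3C is the lowest in both groups, on a level that may be too low because of its near-identical copy.

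Most genes of the exchange factor eIF2B rose, and so did those of eIF2 alpha and beta. Of the 5 eIF2B subunits 4 rose and 0 fell, beside 24.2% and 24.6% of all tested genes. Their median log2 fold change was 0.57. The catalytic subunits EIF2B3 and EIF2B5 both rose. EIF2B3 stood at 20.6, 17.4 and 15.1 CPM in controls and at 28.2, 33.3 and 35.7 CPM with ApoD overexpression (log2 fold change 0.87 ± 0.14 SE, edgeR adjusted p = 0.000300). EIF2B5 stood at 57.9, 53.2 and 51.4 CPM in controls and at 79.4, 81.1 and 81.4 CPM with ApoD overexpression, a rise of 0.57 ± 0.09 (edgeR adjusted p = 0.000276). In both genes every library with ApoD overexpression was above every control. Of the regulatory subunits EIF2B1 rose by 0.75 ± 0.10 and EIF2B4 by 0.45 ± 0.11. EIF2B2, the remaining one, had 0.22 ± 0.11 and did not pass.

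EIF2S1, the alpha subunit of eIF2 that the stress kinases phosphorylate, stood at 137, 129.7 and 141 CPM in controls and at 184, 205 and 199.6 CPM with ApoD overexpression. The groups were apart, with a log2 fold change of 0.53 ± 0.09 (SE, edgeR adjusted p = 0.000419). EIF2S2, the beta subunit, rose by 0.30 ± 0.08 (edgeR adjusted p = 0.0115). It did not pass without control replicate 2 (adjusted p = 0.0691), without ApoD replicate 3 (0.0601), under library totals (0.0759) and after the abundance trend was taken out (0.334). EIF2S3, the gamma subunit, had 0.08 ± 0.08 and did not pass, alone or summed with its near-identical copy EIF2S3B (0.07 ± 0.08). Neither EIF2A nor EIF2D, which can deliver initiator transfer RNA without eIF2, passed, with log2 fold changes of 0.12 and 0.08. The FPKM ratio of EIF2B5 to EIF2S1, likewise chosen after values were seen, was 0.620 ± 0.0470 in controls and 0.640 ± 0.0290 under ApoD overexpression (SD, n = 3), with overlap.

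The scanning factors rose except for 1 paralog. EIF1AX, the X-linked eIF1A gene, stood at 128.5, 112 and 126 CPM in controls and at 253, 223 and 222 CPM with ApoD overexpression. With a 1.90-fold rise (log2 fold change 0.93 ± 0.09 SE) it had the lowest edgeR adjusted p of all members, 1.6e-05. EIF1, which keeps scanning stringent, stood at 406, 412 and 413 CPM in controls and at 505, 584 and 543 CPM with ApoD overexpression, a rise of 0.41 ± 0.09 (edgeR adjusted p = 0.00227). With the abundance trend removed EIF1 had 0.20 and an adjusted p of 0.0535. Its paralog EIF1B stood at 25.0 to 28.1 CPM in controls and at 25.6 to 29.1 CPM with ApoD overexpression (log2 fold change 0.02 ± 0.11). EIF1AD, an eIF1A-like protein of small subunit assembly, rose by 0.66 ± 0.12.

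EIF5, the GTPase activating protein of eIF2, stood at 353, 296 and 278 CPM in controls and at 524, 494 and 557 CPM with ApoD overexpression (log2 fold change 0.77 ± 0.10 SE, edgeR adjusted p = 0.000106). No library of 1 group reached the other group. EIF5B, the GTPase that joins the ribosomal subunits, was less settled, with 121, 89.0 and 81.5 CPM in controls and 139, 88.3 and 147 CPM with ApoD overexpression. ApoD replicate 2 lay within the controls, and the log2 fold change of 0.36 ± 0.18 (SE, edgeR adjusted p = 0.122) did not pass. EIF5B was called higher without control replicate 1 (0.55, adjusted p = 0.00844) or without ApoD replicate 2 (0.55, 0.0130), and also with no low-count filter (0.0134). Without ApoD replicate 3 it was 0.24.

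EIF5A, which carries the modified residue hypusine and is a factor of elongation and termination despite its name, was among the most abundant members. It stood at 972, 729 and 698 CPM in controls and at 1276, 1503 and 1385 CPM with ApoD overexpression. The groups were apart, with a 1.74-fold rise (log2 fold change 0.80 ± 0.13 SE, edgeR adjusted p = 0.000304). Its paralog EIF5A2 rose by 0.62 ± 0.15 and its near-identical copy EIF5AL1 by 0.71 ± 0.13, and reads of EIF5A and EIF5AL1 may be shared. Of the hypusine enzymes, DOHH rose by 1.11 ± 0.15 on the log2 scale (SE, edgeR adjusted p = 0.000113), with CPM means of 11.4 ± 1.90 and 24.7 ± 3.64 (SD, n = 3), while DHPS, the other enzyme, named after its value was seen, had −0.15 ± 0.11 and did not pass.

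EIF6, which keeps the large ribosomal subunit from joining too early and serves in its assembly, stood at 173, 154 and 144 CPM in controls and at 249, 328 and 248 CPM with ApoD overexpression. The groups did not overlap and ApoD replicate 2 was the highest. EIF6 rose by 0.81 ± 0.12 (SE, edgeR adjusted p = 0.000206).

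The annotated start of the members' transcripts was looked at after their values were seen. A transcript that starts with C and a run of C or T at the cap, the 5′ terminal oligopyrimidine (TOP) motif, is known to be under control of mTORC1 and the protein LARP1 at the level of translation. RefSeq promoter sequences (GRCh38.p14, 250 bases before to 50 after the annotated start) were found for 41 of the 49 members; those without were EIF2S2, EIF3A, EIF3CL, EIF3E, EIF3G, EIF3H, EIF3L and EIF4EBP1. A pyrimidine start was taken as C at the annotated start followed by at least 4 bases that are each C or T, on the gene's strand. It was present in 10 of 41 members and in 5.34% of the 11490 tested genes with a sequence (4.04% of all 27305 sequences). Each sequence below shows 20 bases before the start and the first 10 bases of the transcript, with the pyrimidine run in capitals, for 6 members with such a start that did not rise or rose by less than 0.4.
EIF4A2 (chr3:186783557-186783586, + strand): gggtggttgggcgccgctgtCTTTTCagtc
EIF4B (chr12:53006436-53006465, + strand): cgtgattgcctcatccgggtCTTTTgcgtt
EIF2S3 (chrX:24054936-24054965, + strand): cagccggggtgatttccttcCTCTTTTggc
EIF3F (chr11:7987317-7987346, + strand): gtcatttccgcttccgcctcCTTCTTTCTC
EIF3M (chr11:32583811-32583840, + strand): gcgtcgcgcggcccagttccCTTTTCCggt
EIF3D (chr22:36529157-36529186, − strand): ccgctgcgcgcgcatgtttcCTCTTTTCCT
In these 6 the run begins at the first base of the transcript and is 5 to 10 bases long as far as shown. Both sets of sequences were picked by the change of the genes, and the start used in these cells is not known. EIF1B, EIF2B2, EIF4E2, EIF4EBP2, EIF4ENIF1, EIF4G3 and EIF5B also lack such a run and did not pass, and EIF4E3 lacks it and fell. The following members rose by more than 0.5 and lack such a run, with the first base of the transcript in capitals.
EIF4G1 (chr3:184314586-184314615, + strand): cgggatctgtgcggggagccGgaaatggtt
EIF4E (chr4:98929124-98929153, − strand): cccccccttctggagcggttGtgcgatcag
EIF1AX (chrX:20141829-20141858, − strand): gcgacgcaaagagtcgcggcGccatttgct
EIF5A (chr17:7306979-7307008, + strand): ccgagatgggtgggaacccgAccacactag
EIF6 (chr20:35284708-35284737, − strand): actggttacttggtaagctgGtgtgagggg

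Of the 10 tested members with a pyrimidine start 2 rose (EIF3D and EIF3K) and 1 fell (EIF4A2), with a median log2 fold change of 0.09 and a range from −0.42 to 0.38. The others were EIF2A, EIF2D, EIF2S3, EIF2S3B, EIF3F, EIF3M and EIF4B. Since EIF2S3B is a copy of EIF2S3, the start of these 2 is not independent. Of the 30 tested members with another start 22 rose and 1 fell, with a median of 0.60. With the abundance trend removed 0 of the 10 rose and 2 fell, with a median of −0.06, against 20 and 1 of the 30 and a median of 0.50. The median mean count was 6416 for the 10 and 4460 for the 30. Over all tested genes, 22.7% of the 613 genes with a pyrimidine start rose and 22.2% fell, against 25.3% and 23.8% of the 10877 others. With the abundance trend removed 112 of the 613 rose and 150 fell, with a median of −0.04. Of the 10877 others 2491 rose and 2471 fell in that setting, with a median of 0.02. The difference between both sets of members was not tested, since the feature was chosen with the values in view. With the start allowed within 2 bases of the annotated one, 4 of 14 members with it rose, against 20 of 26 without it. EIF4G2 and EIF3J were among the 4. Over all tested genes 24.1% of those with such a start and 25.3% of those without it rose.

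**Figure D5:**
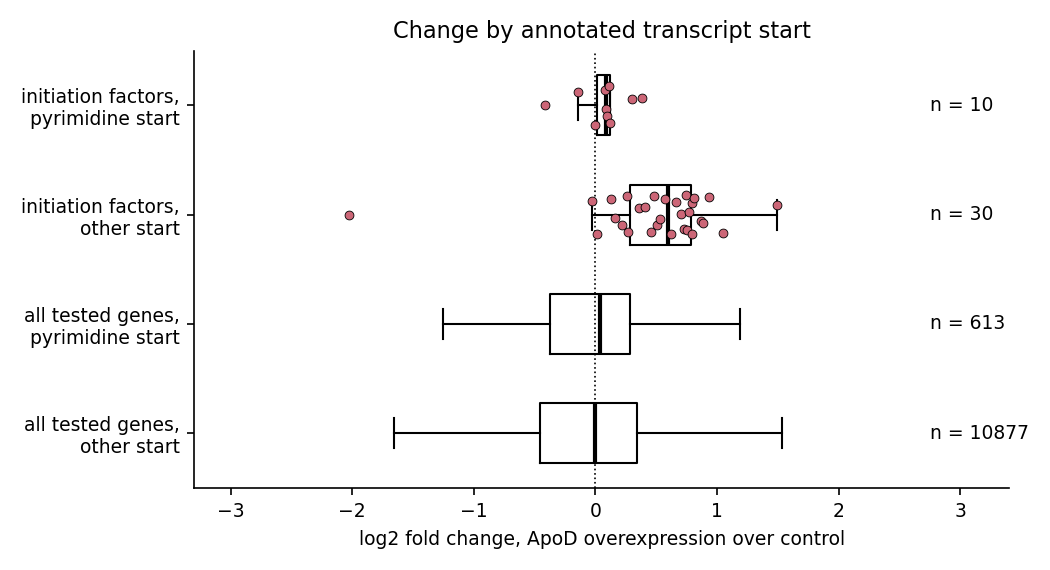
Log2 fold change (x axis) of tested genes by annotated transcript start; boxes span the quartiles with the median as a thick line, whiskers reach 1.5 box lengths, and points are initiation factors. The 10 initiation factors with a pyrimidine start lie between −0.42 and 0.38 and most of the 30 others lie further right, while the boxes of all tested genes are centred near 0 for both kinds of start.

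A second sequence, the E-box CACGTG that MYC and related factors bind, is known in the promoter of EIF4E. The motif is its own reverse complement, so both strands were searched at once. It stood in 11 of 41 member promoters (26.8%) and in 9.94% of the promoters of tested genes. EIF4E, EIF4G1 and EIF5A2 each held it at 2 places before the start. Those of EIF4E and EIF4G1, which work in the cap complex, are shown with the motif in capitals.
EIF4E, 225 bases before the start (chr4:98929341-98929370, − strand): ctacccatcggcCACGTGaccagtcctttt
EIF4E, 72 bases before the start (chr4:98929188-98929217, − strand): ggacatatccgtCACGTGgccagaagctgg
EIF4G1, 144 bases before the start (chr3:184314450-184314479, + strand): ggctgtggctgtCACGTGacggggcggggg
EIF4G1, 67 bases before the start (chr3:184314527-184314556, + strand): ccctgcgccggtCACGTGggggcgccggct
Of the 10 tested members with the motif 7 rose and 0 fell, and of the 30 without it 17 rose and 2 fell, with medians of 0.44 and 0.43. Over all tested genes, 33.0% of those with the motif rose and 18.4% fell, against 24.3% and 24.3% of those without it. A match is a description of these letters and not a measured binding site.

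In a list of 16 cap complex kinases, inhibitors and partners 6 rose and 4 fell, with a median log2 fold change of 0.08. These are 37.5% and 25.0% of the list, and the share that fell is near the 24.6% of all tested genes that fell (24.2% rose). PDCD4, which blocks eIF4A, had 2084, 2124 and 2335 counts in controls and 1126, 740 and 943 with ApoD overexpression, and fell with a log2 fold change of −1.11 ± 0.12 (SE, edgeR adjusted p = 2.43e-05). PAIP2B, an inhibitor of poly(A)-binding protein, fell with −0.94 ± 0.19. Both MNK kinases, which phosphorylate eIF4E, fell as well, MKNK2 with −0.53 ± 0.09 and MKNK1 with −0.45 ± 0.09; they were picked after their values were seen, as the remaining falls of the list. The poly(A)-binding protein gene PABPC4 rose by 0.69 ± 0.11 and NCBP1, a nuclear cap-binding protein, by 0.55 ± 0.11.

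Of 21 genes of mTORC1 and its regulators 7 rose and 2 fell (33.3% and 9.52%, beside 24.2% and 24.6% of all tested genes), with a median of 0.10. LARP1, which binds TOP transcripts, rose by 0.89 ± 0.11 (SE, edgeR adjusted p = 5.85e-05), with CPM means of 311 ± 42.8 and 577 ± 47.7 (SD, n = 3). AKT1S1 and RPTOR, which belong to the complex, rose by 0.84 ± 0.13 and 0.63 ± 0.11. RRAGD, a Rag GTPase, fell with −0.78 ± 0.24, which no longer passed when control replicate 2 was left out (adjusted p = 0.0565) or when the abundance trend was taken out (−0.36, adjusted p = 0.238). With the abundance trend removed 6 of the list rose and 1 fell, beside 22.1% and 23.1% of all tested genes.

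Of 10 eIF2 kinases, phosphatase subunits and related factors 2 rose and 2 fell, shares near the 24.2% and 24.6% of all tested genes. Among the 4 kinases EIF2AK3 alone passed with TMM scaling. EIF2AK1 had −0.20 ± 0.08 and was called lower under library totals (−0.31) and after the abundance trend was taken out (−0.39). PPP1R15A, which directs dephosphorylation of eIF2 alpha, rose by 0.58 ± 0.13, and GCN1, an activator of the kinase GCN2, by 0.49 ± 0.10. NCK1 fell with −0.58 ± 0.11. The kinase EIF2AK3, known as PERK, fell with −0.44 ± 0.14 (edgeR adjusted p = 0.0202), which did not pass when control replicate 2 was left out (adjusted p = 0.0616) or ApoD replicate 2 (0.0578). Of 12 transcription factors and targets of the integrated stress response 3 rose and 2 fell (25.0% and 16.7%, near or below the 24.2% and 24.6% of all tested genes; median 0.06). ATF5 and PSAT1 rose by 1.65 ± 0.20 and 1.18 ± 0.12, and DDIT4 and VLDLR fell with −1.18 ± 0.13 and −2.30 ± 0.48. VLDLR had low counts, 61, 160 and 142 in controls and 27, 8 and 33 with ApoD overexpression. The remaining rise, named after its value was seen, was ATF4 with 0.28 ± 0.10. It did not pass under library totals (edgeR adjusted p = 0.208) or with the abundance trend removed (0.562). Its call was also lost when control replicate 1 or 2, or ApoD replicate 2 or 3, was left out.

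Ribosome recycling and reinitiation genes had the highest share of rises among these lists. Of 7 tested members 6 rose and 0 fell, beside 24.2% and 24.6% of all tested genes, with a median of 0.47. ABCE1, which splits ribosomes after termination and binds eIF3j, rose by 0.74 ± 0.10 (SE, edgeR adjusted p = 8.1e-05), with CPM means of 68.8 ± 6.13 and 115 ± 6.59 (SD, n = 3). The termination factors ETF1 and GSPT1 rose by 0.64 ± 0.09 and 0.56 ± 0.09, and PELO, a rescue factor, by 0.47 ± 0.10. MCTS1 rose by 0.32 ± 0.11. It did not pass under library totals (edgeR adjusted p = 0.151), with the abundance trend removed (0.136) or with the replicate number as a block (0.0596). In each of these settings 5 of the 7 rose. The call of MCTS1 was also lost when any 1 control was left out. Without ApoD replicate 2 its change was 0.19 and did not pass. A list of 11 elongation factors and related genes also held the hypusine enzymes DOHH and DHPS, so not all of it is elongation factors. In this list 5 rose and 1 fell (median 0.04), beside 24.2% and 24.6% of all tested genes. The elongation factors EEF1A1, EEF1G and EEF2 did not pass. After the abundance trend was taken out 2 rose and 3 fell, near the 22.1% and 23.1% of all tested genes. Besides DOHH, EEF1B2 rose by 0.44 ± 0.12 and EEF1E1 by 0.41 ± 0.15, while EEF1A2 fell with −0.41 ± 0.08. The change of EEF1B2 was 0.29 without ApoD replicate 2, and it did not pass with the abundance trend removed (0.24, adjusted p = 0.0714). The groups overlapped for EEF1E1, and its call was lost in 4 of the 6 fits that left out 1 library (adjusted p up to 0.126), under library totals (0.140) and with the replicate number as a block (0.0552).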

How the data were processed

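Total RNA of 6 samples (3 control, 3 ApoD overexpression) was isolated with an RNeasy kit and made into libraries with a SMARTER mRNA kit, per the labels' protocols. The authors deposited raw read counts per gene symbol and an FPKM table, per the file headers. Which aligner, counter, strand setting and genome the authors used is not given in the sources used here. All 21676 genes were fitted together. Counts were tested with edgeR 4.0.16 (R 4.3.3): TMM scaling, filterByExpr with a minimum count of 10 (14629 genes left), a quasi-likelihood F test, two-sided, Benjamini-Hochberg adjustment over all tested genes, and a threshold of 0.05. The SE is the log2 fold change divided by the square root of F. Deposited FPKM were used for levels per gene length and for paralog shares, with exact permutation tests. The test was also run on simulated counts with few changed genes, as many up as down, and no trend with abundance. That run does not bear on the calls here, where 48.8% of all tested genes passed. Libraries held 37542568 to 40416964 counts, and the lowest mean count of a tested member was 259; counting error is largest where single libraries are low, as for EIF4E3 with 64 and 77 counts.

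The members, lists and alternatives were chosen with earlier results of these data known. Members were named in full for the 10 largest rises, all called falls and a core gene of each family, and from each list up to 4 called genes by size; 1 core gene and the eIF4A paralog shares are not reported here. Alternatives were DESeq2 1.42.0, other scalings and filters, limma 3.58.1 on log2(FPKM + 1) or log2(FPKM + 0.1), a 1.5-fold threshold, a replicate block and leaving out each library. Chosen after seeing the data were a mean count of at least 500, summed near-identical copies and the sequence features. Promoters are from RefSeq (GRCh38.p14), matched by symbol.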

Additional observations from a re-analysis of the deposited data

How the results depend on the processing

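The counts of 28 members higher and 2 lower were the same with DESeq2 size factors and with the DESeq2 Wald test. With no low-count filter 29 were higher and 2 lower, and with summed copies 27 and 2. With only genes of a mean count of at least 500, 46 members were tested, of which 24 were higher and 2 lower. Leaving out 1 library at a time gave 25 to 30 higher and 2 lower, and 27 of the 30 called members kept their call and direction in all 6 such fits; EIF2S2, EIF3K and EIF4H did not. The count of members lower was 5 with library totals, 5 with the abundance trend removed and 4 with limma on either FPKM scale, where 25 were higher; the cause was not tested. Against a 1.5-fold change, glmTreat called 3 members higher and 1 lower, beside 3.73% and 9.78% of all tested genes. Of the 77 tested pathway genes glmTreat called 4 higher and 3 lower, and this test asks for a larger change. The quasi-likelihood test called 29 of the 77 higher and 11 lower, beside 24.2% and 24.6% of all tested genes. EIF3CL ran from −0.59 to 0.79 when 1 library was left out, and turned from −0.20 to 0.79 without control replicate 3. Shares of counts in place of FPKM gave the same directions for the paralog shares whose groups did not overlap. The labels do not say that replicate numbers pair the libraries. Deviations of same-numbered libraries correlated at −0.12 to −0.01, and 0 of 3 controls correlated best with their own number. With the replicate number as a block 27 members were higher and 2 lower. Shares of eIF4A paralogs were not run.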
